A study of Mus musculus with 3 samples.

Results

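The 10 genes described here encode proteins that build or regulate nuclear speckles. They are the CDC2-like kinases Clk1, Clk2, Clk3 and Clk4, the SR protein kinases Srpk1 and Srpk2, the SR-like splicing regulator Tra2b, and the scaffold genes Srrm1, Srrm2 and Son. They were chosen by symbol from the 32285 genes of the count files, each symbol matched 1 gene, and all 10 had a mean of at least 10 CPM (the UMIs of a gene scaled by the total of its library's called cells) over the 3 libraries, as did 7884 genes in all. E14 mouse embryonic stem cells (129/Ola background) were kept in medium with fetal bovine serum and leukaemia inhibitory factor, and their RNA was counted cell by cell in droplets with 3' chemistry. Cells received 10 uM tubercidin, an adenosine analogue, for 3 h or 6 h, and control cells were given DMSO, the solvent, over 6 h. Each condition is 1 library of 1 cell line, the 3 h library has no DMSO control of its own time, and there is no replicate spread, so nothing was tested. Ranges in parentheses are exact 95% intervals for counting error alone.

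Nuclear speckles are bodies between chromatin regions in which splicing factors are stored and readied for use. SON and SRRM2 are large, disordered proteins that form their core, and SRRM1 is a co-activator of splicing that works with SR proteins. SR proteins carry stretches of alternating arginine and serine, and their phosphorylation decides where they are. SRPK kinases act mainly in the cytoplasm, where phosphorylation lets SR proteins be imported. CLK kinases act in the nucleus, where further phosphorylation releases SR proteins from speckles. TRA2B binds purine-rich exon sequences and promotes inclusion of those exons. Several of these genes are known to control their own transcripts by alternative splicing, among them Tra2b and Clk1.

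A UMI marks 1 captured RNA molecule, and barcodes with enough UMIs for their library were taken as cells. The control, 3 h and 6 h libraries gave 2031, 2365 and 2926 cells, with 104892739, 29892000 and 24681924 UMIs in all and medians of 48452, 11877 and 8004.5 UMIs per cell. Of the cell barcodes, 1 was shared by each pair of libraries. The 7 stem cell markers Pou5f1, Nanog, Sox2, Zfp42, Dppa5a, Tdgf1 and Utf1 were detected in every library, with sums of 4245, 5048 and 3591 CPM. Dppa5a made up most of each sum, at 2549, 3555 and 2263 CPM, and the others differed in course. Sox2 was at 205, 80.6 and 81.1 CPM, Zfp42 at 712, 437 and 455, and Nanog at 77.4, 62.4 and 50.2. Pou5f1 was at 137, 159 and 213 CPM, Tdgf1 at 226, 370 and 223, and Utf1 at 338, 383 and 306. Markers of other cell types were low. Over the 3 libraries they summed to 0 to 1.13 CPM for 6 genes of 2-cell-like cells, 0.963 to 2.19 CPM for 6 of fibroblasts, 6.72 to 10.9 CPM for 7 of primitive endoderm and 9.23 to 13.6 CPM for 6 of trophoblast. The 2-cell-like sum was highest at 6 h, when 4 of its 6 genes had UMIs, and Zscan4c and Zscan4f were at 0 in every library. The fibroblast sum was also highest at 6 h, when 5 of 6 genes had UMIs and Col1a2 was at 0. Postn was at 0 in the other libraries, Col3a1 at 3 h, and Sox17 of primitive endoderm and Hand1 of trophoblast at 6 h. A value of 0 allows a level of up to 3 counts, which is 0.0286, 0.100 and 0.122 CPM in the 3 libraries. The part of these markers in the results below was not tested.

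The letters before the annotated starts are shown for members that differ in pattern: Clk2, lower at both times, Tra2b, lowest at 6 h, and Srrm2, highest at 6 h. Each line gives the 160 bases before the first base of a RefSeq transcript (GRCm38.p6), 5′ to 3′ on the gene's strand, and these windows hold no annotated exon of GENCODE M21. They lie at chr3:89164635-89164794 (plus strand), chr16:22266006-22266165 (minus strand) and chr17:23803027-23803186 (plus strand).
Clk2: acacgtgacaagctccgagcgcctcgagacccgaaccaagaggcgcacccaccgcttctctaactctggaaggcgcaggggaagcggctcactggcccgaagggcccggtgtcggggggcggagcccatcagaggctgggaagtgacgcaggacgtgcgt
Tra2b: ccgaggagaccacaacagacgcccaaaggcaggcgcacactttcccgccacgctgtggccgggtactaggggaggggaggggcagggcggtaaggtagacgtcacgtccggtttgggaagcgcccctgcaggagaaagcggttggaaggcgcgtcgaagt
Srrm2: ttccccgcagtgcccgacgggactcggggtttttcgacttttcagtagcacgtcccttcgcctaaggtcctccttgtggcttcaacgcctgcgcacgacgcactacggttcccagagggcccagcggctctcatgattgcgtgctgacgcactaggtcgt

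A set of 6 short motifs was searched on both strands of the 250 bases before each start, in 32851 RefSeq windows, and 9 of the 10 members had such a window. The NRF1 core was found in 0.782% of all windows and, among the members, in Srrm1. The CRE, TGACGTCA, was found in 1.55% of windows and in Clk4, and the ETS core, CCGGAAG, in 6.91% and in Clk3. The CCAAT box, CCAAT, was found in 33.8% of windows and in Clk2, Srpk2, Srrm1 and Son. Neither the YY1 core (0.207% of windows) nor the TATA box, TATAAA (12.4%), was found in these windows of the members. Srrm1, Clk4, Clk3 and Son are shown as 30 bases around the motif in capitals. The 160 bases before the RefSeq starts of Srrm1, Clk3 and Son lie wholly within GENCODE M21 exons of these genes, and 52 of those of Clk4 within exons of BC049762. They lie at chr4:135353279-135353308 (minus strand), chr11:51263038-51263067 (plus strand), chr9:57765121-57765150 (minus strand) and chr16:91647789-91647818 (plus strand).
Srrm1, NRF1 core: tggtgcgcttGCGCATGCGCgtcgttctcg
Clk4, CRE: cccgccgtcccTGACGTCAcagacccctcg
Clk3, ETS core: cggaggccagagCCGGAAGcggaagaggcg
Son, CCAAT box: gctccctcacgagCCAATcaggaaagggat
The capitals match the motif on the gene's strand. A match is a description of these letters and not a site of binding.

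All 10 members have at least 1 annotated transcript with a retained intron and at least 1 marked for nonsense-mediated decay, the pathway that degrades messages with early stops. Among the 7882 tested genes found in the annotation these shares were 65.1% and 31.8%. Clk1 and Clk4 each have 7 annotated transcripts with a retained intron, of 13 and 14 transcripts. The counts used here are sums over all transcripts of a gene and do not tell these forms apart.

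As a list, the 10 genes lay close to the genes around them. None was at least 2-fold higher or lower in any comparison, where 0.888% of the 7884 genes were at least 2-fold higher and 5.54% lower at 3 h against the control, 2.33% and 4.41% at 6 h against the control, and 1.64% and 0.165% at 6 h against 3 h. Ratios here are log2 ratios of CPM + 1. At a limit of 1.5-fold, Clk1 and Clk2 were lower at 3 h, 2 of 10 against 24.5% of all genes, and none was higher, against 3.61%. No member was past 1.5-fold at 6 h, where 16.9% of genes were lower and 7.06% higher. Clk2 was just inside at 1.49-fold. Over the settings apart from UMIs per cell, the count lower at 6 h ran from 0 to 2. The share of all genes lower there ran from 16.1% to 18.3%. Srrm1 was higher at 6 h than at 3 h, 1 of 10 against 8.51%, and none was lower, against 1.67%. Over the other settings apart from UMIs per cell, the count lower at 3 h ran from 0, under median-of-ratios and TMM factors, to 4. The share of all genes lower at 3 h moved as well, from 11.4%, under median-of-ratios factors, to 27.8%. Between 3 h and 6 h Srrm1 was under the limit with median-of-ratios and TMM factors. With these factors 3.06% and 3.13% of all genes were at least 1.5-fold higher. The median log2 ratio of the 10 was -0.44 at 3 h, -0.21 at 6 h and 0.13 between 3 h and 6 h, beside -0.27, -0.12 and 0.14 for all genes tested. By sign alone, 9 were lower and 1 higher at 3 h (72.6% and 27.4% of all genes), 7 lower and 3 higher at 6 h (60.3% and 39.7%), and 8 higher and 2 lower at 6 h than at 3 h (67.6% and 32.4%). The first 2 comparisons share the control library. Median-of-ratios scaling shifted the median of all genes by 0.23 at 3 h and by -0.22 between 3 h and 6 h. It gave 4 higher and 6 lower in both of these comparisons, as did TMM factors, and left the split at 6 h against the control at 3 higher and 7 lower.

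**Figure D1:**
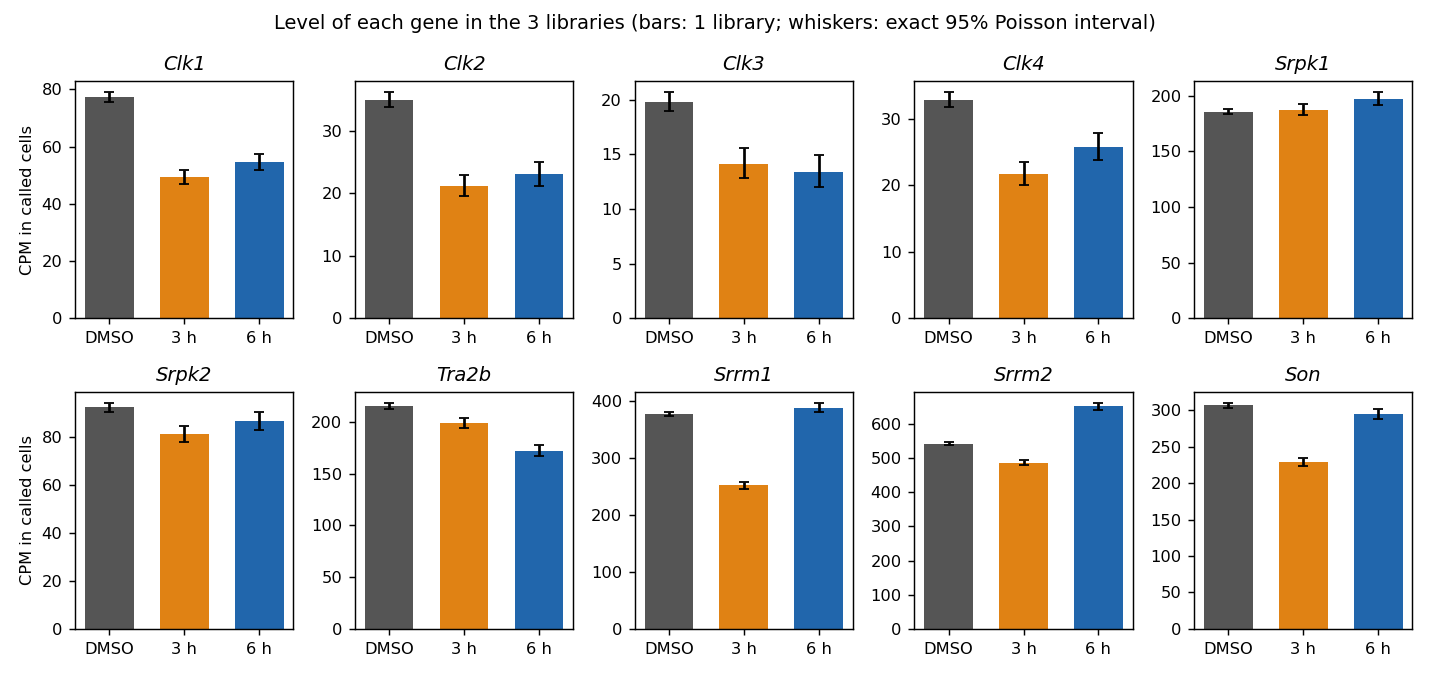
Level of each of the 10 genes in CPM (vertical axis, from 0) in the DMSO, 3 h and 6 h libraries, with 1 bar per library and exact 95% Poisson intervals as whiskers. The 4 Clk genes are below the control at both times, whereas Srrm1 and Son are lowest in the 3 h bar and Tra2b is lowest in the 6 h bar.

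The CLK kinases were lower in both treated libraries than in the control. Clk1 (ENSMUSG00000026034, chr1:58410189-58424066, minus strand) was at 77.3 CPM in the control (75.6 to 79.0), 49.4 CPM at 3 h (46.9 to 52.0) and 54.6 CPM at 6 h (51.7 to 57.6). Its control level stands clear of both treated levels, which were 1.55-fold and 1.41-fold lower, and the intervals of the treated levels overlap slightly, while that of their log2 ratio, 0.037 to 0.25, leaves out 0. The log2 ratios were -0.64 at 3 h and -0.49 at 6 h, at the percentiles 20.9 and 21.7 of all genes.

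Clk2 (ENSMUSG00000068917, chr3:89164795-89176921, plus strand) had the largest differences from the control of the 10 genes. It was at 35.0 CPM in the control (33.9 to 36.1), 21.1 CPM at 3 h (19.5 to 22.9) and 23.1 CPM at 6 h (21.2 to 25.1). The treated levels do not differ beyond counting error, and both lie below the control, with log2 ratios of -0.70 and -0.58. Among all genes these ratios stood at the percentiles 16.8 and 17.3, so Clk2 was not among the extremes. The genes nearest to Clk2 in the pair of log2 ratios, over the 3 libraries, were Zbtb1 at a distance of 0.0059, Ccdc186 at 0.012 and Naa60 at 0.017. Ccdc186 was at 36.4, 22.1 and 23.9 CPM.

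Clk4 (ENSMUSG00000020385, chr11:51261730-51281766, plus strand), the closest relative of Clk1, was at 32.8 CPM in the control (31.7 to 33.9), 21.7 CPM at 3 h (20.1 to 23.4) and 25.7 CPM at 6 h (23.8 to 27.8). The intervals of the 3 libraries do not overlap, with 3 h lowest and 6 h between in CPM. Between 3 h and 6 h its log2 ratio of 0.23 was 0.017 under median-of-ratios factors, 0.021 under TMM factors and -0.036 in the lower tertile of cells by UMIs, so that order is not settled. Against the control the log2 ratios were -0.57 and -0.34, at the percentiles 25.1 and 31.9 of all genes. Clk3 (ENSMUSG00000032316, chr9:57750624-57765860, minus strand) was at 19.8 CPM (19.0 to 20.7), 14.2 CPM (12.8 to 15.6) and 13.4 CPM (12.0 to 14.9). Here 3 h and 6 h do not differ beyond counting error. The log2 ratios of Clk3 were -0.46 and -0.53, at the percentiles 33.8 and 19.8. Under median-of-ratios factors the 4 CLK ratios ran from -0.47 to -0.23 at 3 h and from -0.56 to -0.33 at 6 h, so all stayed negative. Between 3 h and 6 h the sign of Clk1 and Clk2 turned with that scaling, from 0.14 to -0.081 and from 0.12 to -0.095, and no direction is given for them there.

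In CPM the SRPK kinases were near their control levels. Srpk1 (ENSMUSG00000004865, chr17:28587648-28622709, minus strand) was at 186 CPM in the control (183 to 188), 187 CPM at 3 h (182 to 192) and 197 CPM at 6 h (192 to 203). The 3 h level lies within counting error of the control, with an interval of the log2 ratio without pseudocount from -0.030 to 0.056, but the ratio was 0.25 under median-of-ratios and 0.20 under TMM factors. At 6 h Srpk1 stood 1.06-fold above the control, a small difference whose interval, 0.042 to 0.13, leaves out 0. Srpk2 (ENSMUSG00000062604, chr5:23503264-23684617, minus strand) was at 92.3 CPM (90.4 to 94.1), 81.1 CPM (77.9 to 84.4) and 86.6 CPM (82.99 to 90.4). The Srpk2 log2 ratio at 3 h, -0.18, became 0.054 under median-of-ratios and 0.0056 under TMM factors, so it has no settled sign.

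Since the total of a library scales every gene alike, the ratio of UMIs of one group of members to another within a library does not depend on the scaling. These ratios were chosen after seeing the data, they follow changes and do not compare the levels of different genes. The UMIs of the 4 CLK genes came to 0.594 per UMI of the 2 SRPK genes in DMSO cells (0.583 to 0.605), 0.396 after 3 h (0.380 to 0.413) and 0.412 after 6 h (0.394 to 0.430). The RNA of the CLK genes thus stood lower relative to that of the SRPK genes in both treated libraries. Those 2 libraries do not differ beyond counting error, and kinase protein was not measured. Within the CLK family, the UMIs of Clk1 per UMI of Clk4 were 2.35 in DMSO cells (2.26 to 2.45), 2.27 after 3 h (2.07 to 2.498) and 2.12 after 6 h (1.93 to 2.33). The intervals of this pair overlap in all libraries.

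The scaffold genes were higher at 6 h than at 3 h in CPM, near the control at 6 h for Srrm1 and Son and above it for Srrm2. Srrm1 and Son were below the control at 3 h under each scaling tried. Srrm1 (ENSMUSG00000028809, chr4:135320484-135353321, minus strand) was at 377 CPM in the control (374 to 381), 252 CPM at 3 h (246 to 258) and 389 CPM at 6 h (381 to 397). The 3 h library stands below the others beyond counting error, at a log2 ratio to the control of -0.58 (-0.34 under median-of-ratios factors). Among all genes that ratio stood at the percentile 24.8, so it was not among the extremes. The 6 h library is 1.03-fold above the control, at 0.043. Between 3 h and 6 h the log2 ratio of Srrm1 was 0.62, at the percentile 93.2 of all genes, and it was 0.40 under both median-of-ratios and TMM factors. In UMIs per cell, which mix RNA content with sequencing depth, Srrm1 had 19.5 in DMSO cells, 3.18 after 3 h and 3.28 after 6 h. It was the only member with more UMIs per cell at 6 h than at 3 h.

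Son (ENSMUSG00000022961, chr16:91647506-91679221, plus strand) was at 307 CPM in the control (303 to 310), 229 CPM at 3 h (224 to 235) and 296 CPM at 6 h (289 to 302). The order was thus the same low point at 3 h, and 6 h ended slightly under the control. Among all genes the 3 h ratio of Son stood at the percentile 37.1, so it was not among the extremes. Its log2 ratios were -0.42 at 3 h, -0.054 at 6 h and 0.36 between 3 h and 6 h. Under median-of-ratios factors the first was -0.18 and the last 0.14, and in UMIs per cell the last was -0.22. Srrm2 (ENSMUSG00000039218, chr17:23790532-23824741, plus strand) was at 541 CPM in the control (536 to 545), 486 CPM at 3 h (478 to 494) and 650.4 CPM at 6 h (640.3 to 660.5). It differed from the other scaffolds in ending 1.20-fold above the control at 6 h, a log2 ratio of 0.27. The 3 h ratio of Srrm2, -0.15, turned to 0.086 under median-of-ratios and 0.037 under TMM factors, so its low point at 3 h is not settled. The log2 ratio of 0.42 between 3 h and 6 h stayed positive under those factors, at 0.19 and 0.20, but not in UMIs per cell, at -0.16.

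**Figure D2:**
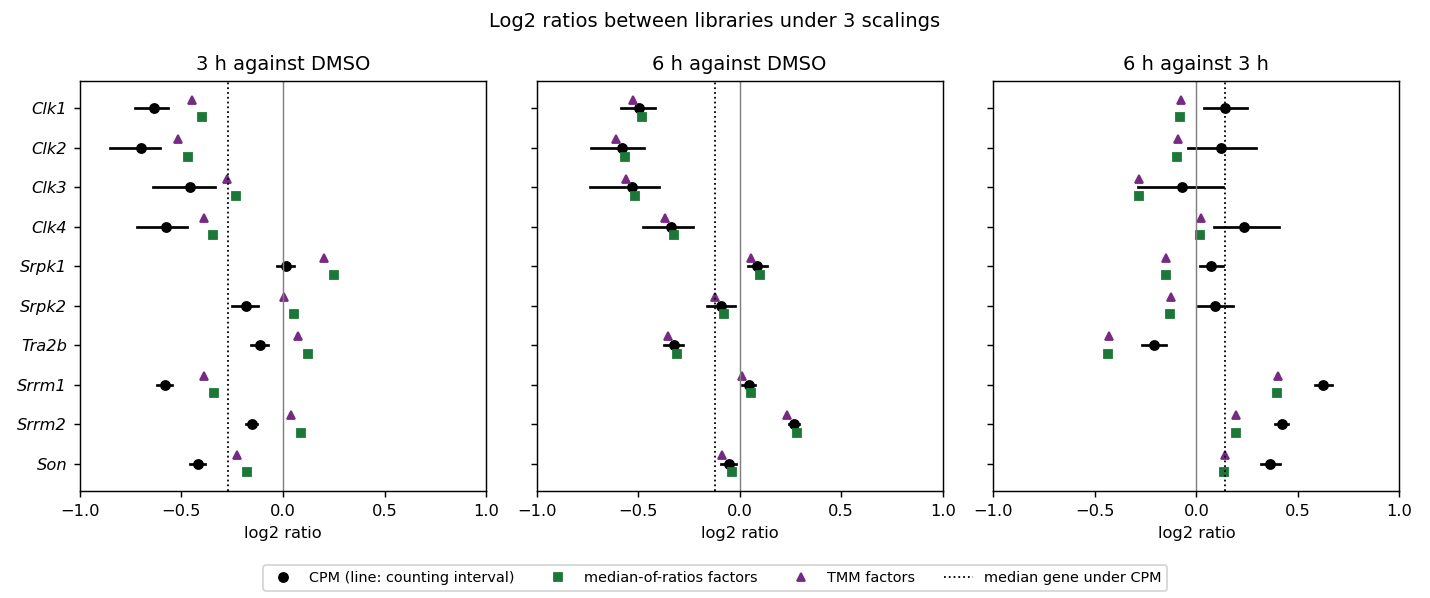
Log2 ratios (horizontal axis) of the 10 genes in the 3 comparisons, with circles for CPM + 1, lines for the 95% counting interval of the ratio without pseudocount, squares for median-of-ratios and triangles for TMM factors. The dotted line is the median of 7884 genes under CPM; the 4 Clk genes lie left of 0 under all 3 scalings at 3 h and 6 h, and the 3 scaffold genes lie right of 0 under all 3 between 3 h and 6 h.

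Among the scaffolds themselves the proportions shifted. Per UMI of Srrm2 there were 0.698 of Srrm1 in DMSO cells (0.689 to 0.707), 0.518 after 3 h (0.504 to 0.533) and 0.598 after 6 h (0.583 to 0.613). The share of Srrm1 was thus lowest at 3 h and between the others at 6 h, with no overlap between the intervals. Per UMI of Srrm2, Son came to 0.567 (0.560 to 0.575), 0.472 (0.458 to 0.486) and 0.454 (0.442 to 0.467), so it was low relative to Srrm2 at both times. The UMIs of all 3 scaffolds per UMI of the 4 CLK genes were 7.43 in DMSO cells (7.31 to 7.55), 9.09 after 3 h (8.76 to 9.43) and 11.4 after 6 h (10.999 to 11.9).

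Tra2b (ENSMUSG00000022858, chr16:22244549-22266005, minus strand) was the member with its lowest level at 6 h beyond counting error of both other libraries. It was at 215 CPM in the control (212 to 218), 199 CPM at 3 h (194 to 204) and 172 CPM at 6 h (167 to 177). The 3 h ratio of -0.12 turned to 0.12 under median-of-ratios factors and to 0.075 under TMM factors, whereas the 6 h ratio of -0.32 stayed between -0.42 and -0.28 over the alternatives other than UMIs per cell. Between 3 h and 6 h the log2 ratio of Tra2b was -0.21, at the percentile 13.8. Per UMI of Srrm2 there were 0.398 of Tra2b in DMSO cells (0.392 to 0.404), 0.409 after 3 h (0.396 to 0.421) and 0.264 after 6 h (0.255 to 0.273). The first 2 of these do not differ beyond counting error, and the value at 6 h stands apart.

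**Figure D3:**
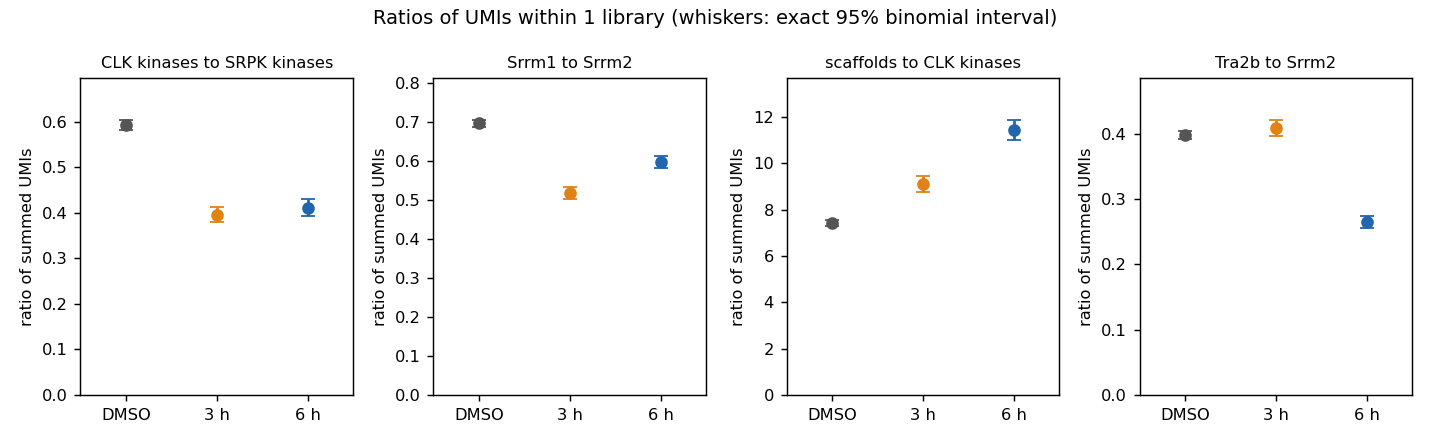
Ratio of summed UMIs of members within a library (vertical axis, from 0), for 4 pairs of genes or gene groups in the DMSO, 3 h and 6 h libraries, with exact 95% binomial intervals as whiskers. CLK to SRPK is 0.594 in the control and 0.396 and 0.412 in the treated libraries, while Tra2b to Srrm2 is set apart only at 6 h, at 0.264.

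Some counts may hold reads of other genes. Of the 31-base words of all annotated Tra2b transcripts, 10.1% also occur in transcripts of another gene, most of them in the predicted gene Gm10254, and for Srpk1 and Srrm1 the shares were 7.07% and 4.88%. In the last 500 bases of coding transcripts, where 3' chemistry reads, the shares were 6.17% for Tra2b, 8.64% for Srpk1 and 8.90% for Srrm1, so these 3 are reported as uncertain to that extent. Clk1 and Clk4 share 0.432% and 0.595% of their words with each other, and the last 500 bases of Clk1 share no word with another gene. Whether counting used the strand is not given in the sources used here, so overlapping genes on opposite strands are also uncertain. Elob, which overlaps Srrm2, was at 1040.5, 1018 and 1213 CPM, and Donson, which overlaps Son, was at 16.2, 8.06 and 6.81 CPM. Kmt2e, overlapping Srpk2, was at 33.8, 19.1 and 18.6 CPM, and Edc3, overlapping Clk3, was at 23.8, 22.7 and 22.7 CPM. Of the others, BC049762 within Clk4 and Gm43566 within Srpk2 were at most 3.74 CPM in every library, and Gart, which starts 554 bases from Son on the opposite strand, was at 182, 153 and 155 CPM.

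Barcodes well below the cell cut-off, down to rank 15000 by UMIs, are taken here as free RNA, and a comparison with the called cells of the same library shows which members are scarce there. They held 3470457, 2137653 and 1413294 UMIs. Srrm1 was at 221 CPM in these barcodes against 377 CPM in control cells, 129 against 252 CPM at 3 h, and 212 against 389 CPM at 6 h. Its log2 ratios of free RNA to cells, -0.77, -0.96 and -0.87, lay at the percentiles 3.21, 8.87 and 9.58 of all genes. Srrm2 had ratios of -0.51, -0.81 and -0.85, and Son of -0.32, -0.74 and -0.53. All 3 scaffolds thus lay below the median gene, at -0.25, -0.40 and -0.36, in every library. So did Clk2, at -0.39, -0.86 and -0.60, and Srpk2, at -0.27, -0.82 and -0.73. In the control Son and Srpk2 were within counting error of the median gene, and Clk2 was so in every library. With 24 and 21 UMIs in free RNA, the intervals of Clk2 were -1.57 to -0.33 at 3 h and -1.34 to -0.010 at 6 h. Srpk1 was at -0.65, -0.26 and -0.54, so such scarcity is not particular to the scaffolds. Tra2b stood at the other end, with 235 CPM in free RNA against 215 CPM in cells in the control, a log2 ratio of 0.13, and 188 against 172 CPM at 6 h, 0.12, but 151 against 199 CPM at 3 h, -0.39.

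In free RNA of the control the CLK genes ran from -0.39 for Clk2 to 0.10 for Clk3, on both sides of the median gene, and they lay from -0.86 to -0.32 at 3 h and from -0.67 to -0.40 at 6 h. Their counts there were small, 18 to 84 UMIs at 3 h and 14 to 48 at 6 h, so single values carry wide intervals, such as -1.32 to 0.33 for Clk3 at 6 h. In all, 8, 10 and 9 of the 10 members were lower in free RNA than in cells, where 76.9%, 82.9% and 86.8% of all genes were. The median of the members was -0.30, -0.71 and -0.59. Subtracting 10% of each library as free RNA changed no sign of a member in any comparison, and left the CLK ratios between -0.64 and -0.36 at 3 h.

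**Figure D4:**
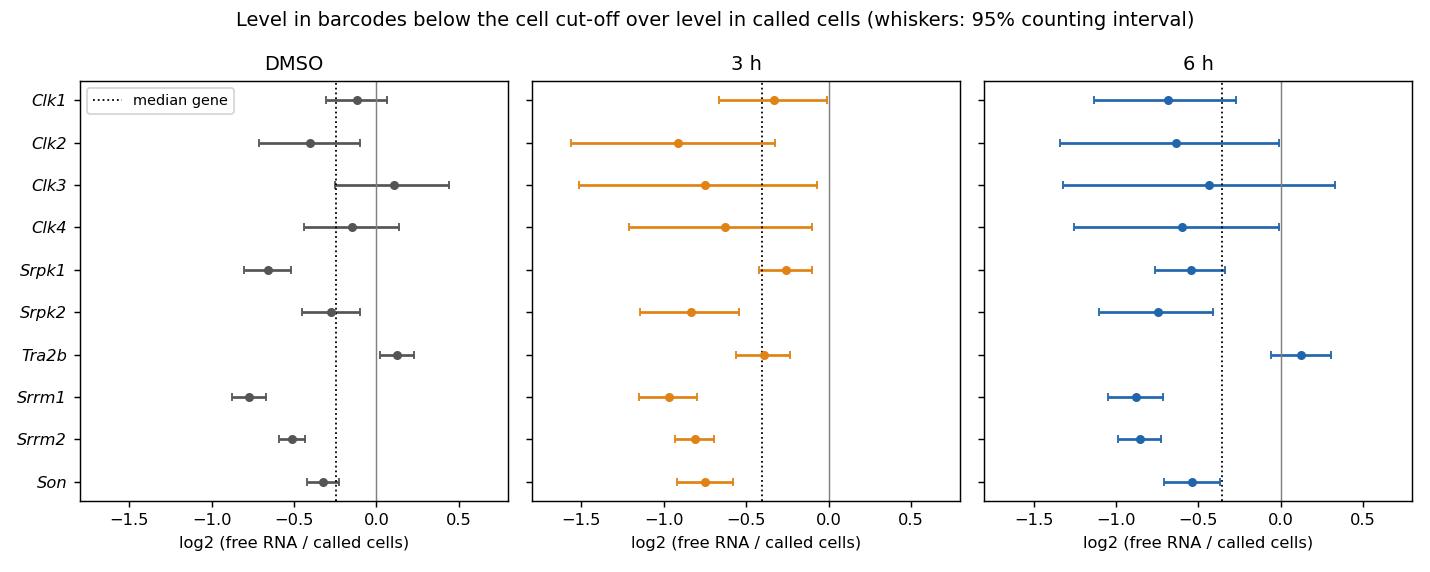
Log2 ratio of the level in barcodes below the cell cut-off to the level in called cells (horizontal axis) for the 10 genes in each library, without pseudocount, with 95% counting intervals as whiskers and the median gene (ratio of CPM + 1) as a dotted line. Srrm1 and Srrm2 lie left of the median gene in all 3 panels, and Tra2b lies right of it in the DMSO and 6 h panels.

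Cells of each library were also split into 3 tertiles of equal number by their UMIs. In the 3 h library Clk1 was at 60.8 CPM in the lower tertile (54.5 to 67.6), 43.8 CPM in the middle (39.7 to 48.3) and 48.6 CPM in the upper (45.1 to 52.3). Clk4 there was at 29.9 CPM (25.6 to 34.8), 17.4 CPM (14.9 to 20.3) and 21.3 CPM (19.0 to 23.8). Both were thus highest in cells with few UMIs, where mitochondrial genes took 4.67% of UMIs against 3.26% and 3.08%; the part of this in the result was not tested. The median gene was also 0.11 higher on the log2 scale in the lower than in the upper tertile at 3 h, beside 0.32 for Clk1 and 0.47 for Clk4, at the percentiles 80.9 and 93.6.

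At 6 h the same ratios were 0.14 for Clk1 and 0.27 for Clk4, with counting intervals that include 0, and in control cells 0.013 and 0.096. The 6 h percentiles of Clk1 and Clk4 were 84.7 and 94.8, with the median gene at -0.023. Clk2 and Clk3 stood at 91.4 and 89.6 at 6 h, also with intervals that include 0. Srrm1 was nearly level over the tertiles at 3 h, at 256, 253 and 249.99 CPM. The 3 h low point of Srrm1 appeared in each tertile, with control levels of 388, 385 and 367 CPM and 6 h levels of 390.0, 404 and 379 CPM. Tra2b was higher in the lower than in the upper tertile of control cells, at 237 (231 to 243) against 208 CPM (204 to 212), and at 3 h, at 228 (216 to 241) against 190.4 CPM (184 to 198). At 6 h, at 177, 174 and 168 CPM, the tertiles of Tra2b overlapped.

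**Figure D5:**
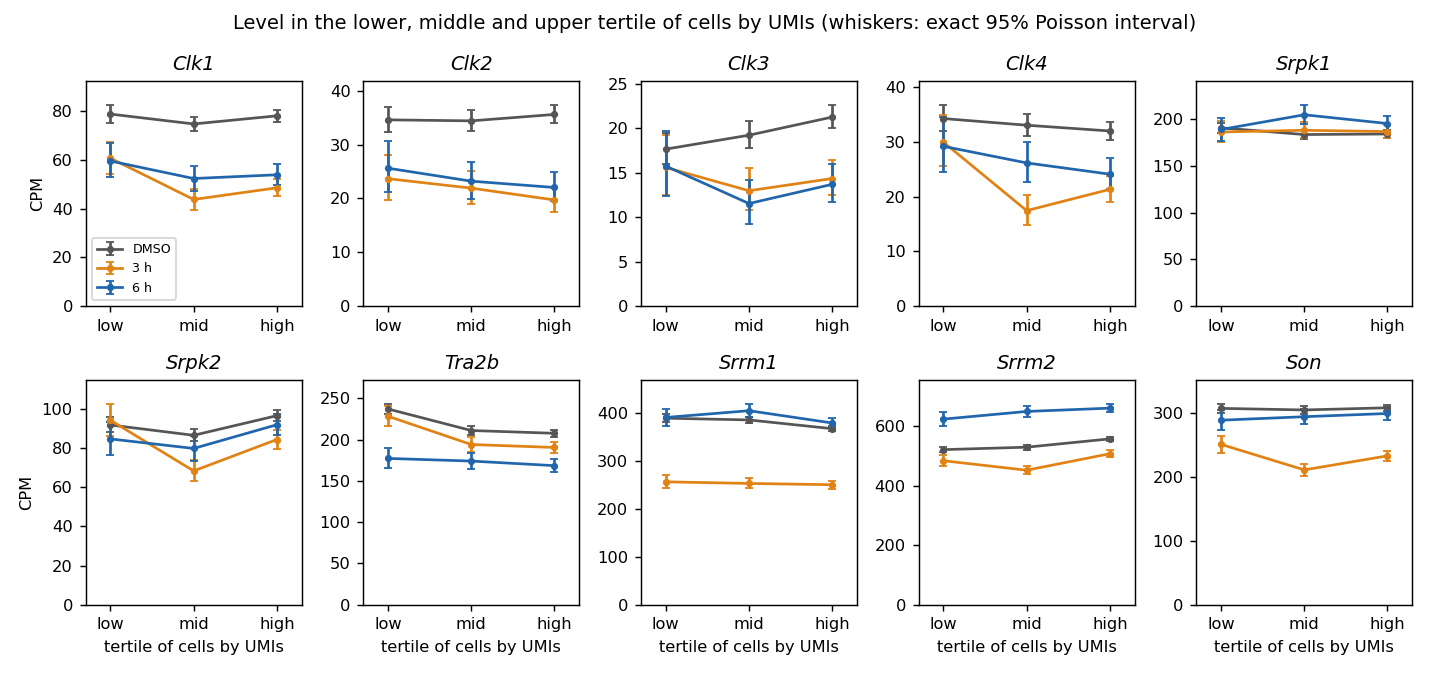
Level in CPM (vertical axis, from 0) in the lower, middle and upper tertile of cells by UMIs for each gene, with 1 line per library and exact 95% Poisson intervals as whiskers. The 3 h line of Srrm1 lies under the other lines in every tertile, whereas the 3 h lines of Clk1 and Clk4 are highest in the lower tertile.

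To compare cells at equal depth, each was thinned to 4000 UMIs, and 0, 122 and 284 shallower cells of the 3 libraries were left out. Srrm1 then had a UMI in 76.1% of control cells (74.2 to 78.0%, Clopper-Pearson), in 62.3% of 3 h cells (60.2 to 64.3%) and in 75.4% of 6 h cells (73.7 to 77.1%), against 99.8%, 90.9% and 90.2% unthinned. Clk1 was found in 26.1% of thinned control cells (24.2 to 28.1%), in 18.8% of those at 3 h (17.2 to 20.4%) and in 19.9% of those at 6 h (18.4 to 21.4%), against 94.6%, 43.5% and 35.0% unthinned. Srrm1 was thus found least often at 3 h, and its shares of control and 6 h cells overlap in their intervals. For Clk1 the intervals at 3 h and 6 h overlap, and both lie below that of the control. Tra2b was found in 56.0%, 54.1% and 48.3% of thinned cells, and Srrm2 in 87.1%, 83.1% and 90.3%. Clk3 was found in 7.34%, 5.17% and 5.49%, a mean of 0.077, 0.052 and 0.055 UMIs per cell, which is too few to describe single cells. No cell type that should lack these genes was present, so the share that free RNA alone gives was not measured. The variance of UMIs over thinned cells divided by their mean, which is 1 where cells differ by counting error alone, ran from 0.96 to 1.18 over all members and libraries, with the highest value for Srrm1 at 6 h.

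The other genes of the speckle and of SR protein control were taken from lists chosen with earlier results of these data known, and genes averaging under 1 CPM were left out. Their counts stand beside 72.6% of all tested genes lower at 3 h and 60.3% lower at 6 h, with medians of -0.27 and -0.12. The tested genes average at least 10 CPM, a stricter limit than that of the lists. Nothing is read from the counts as particular to a list. Of 11 SR protein genes, which hold the substrates of the kinases, 4 were higher and 7 lower at 3 h and 3 higher and 8 lower at 6 h, with medians of -0.20 and -0.23. None was past 2-fold. Srsf11 had the highest ratio at both times, 0.57 and 0.58, with 226, 336 and 337 CPM. The lowest was Srsf4 at 3 h, -0.69, and Srsf7 at 6 h, -0.89, with 454, 334 and 245 CPM. Tra2a, the paralogue of Tra2b, named after its values were seen, was at 167, 114 and 125 CPM, and so was lower at 3 h already, at -0.55.

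Of 23 other speckle and SR-related genes, 10 were higher and 13 lower at 3 h and 14 higher and 9 lower at 6 h, with medians of -0.075 and 0.039 and none past 2-fold. The highest were Ddx39b at 3 h (0.52), an RNA helicase of messenger RNA export, and Arglu1 at 6 h (0.71). The lowest at 6 h was Ppig, at -0.54. At 3 h Zc3h18 had the lowest ratio, -0.94, with 152, 78.8 and 157 CPM, the same course as Srrm1. Between 3 h and 6 h 16 of the 23 were higher, where 67.6% of all genes were, with a median of 0.31 beside 0.14 for all genes. Median-of-ratios scaling shifts such medians by -0.22.

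Of 13 other kinases, phosphatases and the importin Tnpo3 that act on SR proteins, 2 were higher and 11 lower at 3 h and 7 higher and 6 lower at 6 h, with medians of -0.18 and 0.034. Dyrk1b was highest at both times, 0.45 and 0.52, but at 2.28 to 3.69 CPM. Prpf4b, a kinase of the spliceosome, was lowest at 3 h, at -0.83, with 160, 89.5 and 136 CPM. Dyrk2 was lowest at 6 h, at -0.98, but at only 5.37, 3.25 and 2.23 CPM. Of 6 genes listed for the exon junction complex, 2 were higher and 4 lower at 3 h and 1 higher and 5 lower at 6 h. The medians were -0.43 and -0.36. The 1 gene past 2-fold in any list was Pym1 of this list at 3 h, at -1.07. Magoh was lowest at 6 h, at -0.76, while Rbm8a was highest at both times, 0.060 and 0.26.

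Of 8 paraspeckle proteins and nuclear long non-coding RNAs, 3 were higher and 5 lower at 3 h and 4 higher and 4 lower at 6 h, with medians of -0.0093 and -0.17. Neat1, which builds paraspeckles, was highest at both times, 0.50 and 0.72, and Sfpq was lowest at 3 h, -0.53, and Meg3 at 6 h, -0.45. Malat1, a non-coding RNA held in speckles, was at 3185, 3615 and 2355 CPM, so it was highest at 3 h, where Srrm1 and Son were lowest. The signs of small medians at 3 h move with the scaling and give no direction.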

How the data were processed

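The authors deposited raw UMI counts per gene and barcode with no cell filter, from Cell Ranger 7.1.0 per the file headers and on mm10 per the submitters' processing notes. Annotation, strand setting and intron counting are not given in the sources used here. The genes and lists were chosen with earlier results of these data known. A barcode was kept as a cell if its UMIs reached 1/10 of the 99th percentile among the top 3000, it had 500 genes or more and mitochondrial UMIs did not exceed 20%. Cells were not clustered, and doublets were kept. UMIs were summed over cells, scaled to CPM, and compared as log2 ratios of CPM + 1; intervals of a ratio are conditional binomial and leave out the pseudocount. Named genes were all 10 members, the 3 nearest genes of the member with the largest ratio, overlapping genes, the extremes of each list, and Malat1 and Neat1; Tra2a was added after its values were seen. On simulated counts of 7884 genes, with counting error alone, 100% of 200 genes given changes well past 2-fold were recovered in each comparison. For changes of that size this could hardly fail. It says nothing about the smaller differences of the members or about scaling. Gene positions came from GENCODE M21 (GRCm38, the assembly behind mm10), and sequences from RefSeq. Tools were Python 3.11.15, numpy 2.4.6, scipy 1.17.1, pandas 2.3.3, matplotlib 3.10.9 and edgeR 4.0.16 in R 4.3.3, the latter for TMM factors only.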

Additional observations from a re-analysis of the deposited data

Results flagged for a closer look

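Srrm1 and Srrm2 had log2 ratios of opposite sign against the control at 3 h and at 6 h, each beyond counting error, and the difference between the times was not tested. For Srrm1 they were -0.58 and 0.043, and for Srrm2 -0.15 and 0.27. The sign of Srrm2 at 3 h depends on the scaling. The 6 h ratio of Srrm1 was as small as 0.012 under TMM factors and 0.0057 in the lower tertile of cells by UMIs.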

How the results depend on the processing

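Comparisons within tertiles, the ratios within a library and the ratios of free RNA to cells were chosen after seeing the data. The median log2 ratio of the members at 3 h, -0.44, became -0.20 under median-of-ratios factors, -0.25 under TMM factors, -2.40 in UMIs per cell and -0.18 in the lower tertile of cells. At 6 h, -0.21 became -2.75 in UMIs per cell. Between 3 h and 6 h, 0.13 became -0.088, -0.084, -0.42 and 0.017 under the same 4 settings. With UMIs per cell 10 members were past 2-fold lower at 3 h and 10 at 6 h. In this setting unequal sequencing depth enters the ratio. There 99.6% of all genes were at least 1.5-fold lower at each time, with medians of -2.24 and -2.63. The count is thus not particular to the members. A limit of 1.5-fold in place of 2-fold gave 2, 0 and 1 members in the 3 comparisons. Past that limit, 24.5% of all genes were lower and 3.61% higher at 3 h, and 16.9% and 7.06% at 6 h. Between 3 h and 6 h 1.67% were lower and 8.51% higher. Leaving aside UMIs per cell, over 13 settings 6 members kept their sign at 3 h, 9 at 6 h and 4 between 3 h and 6 h. Srpk1, Srpk2, Tra2b and Srrm2 did not at 3 h, Srpk1 did not at 6 h, and the CLK and SRPK genes did not between 3 h and 6 h; the cause was not tested. The share of all genes past 2-fold at 3 h, 6.43%, was 3.77% among genes of at least 50 CPM and 4.24% without a filter. At 6 h 6.75% became 3.77% and 5.44%, and between 3 h and 6 h 1.80% became 0.870% and 1.66%. The count of members lower by 1.5-fold at 3 h ran from 0 to 4 without UMIs per cell, and at 6 h from 0 to 2. Over the same settings the share of all genes ran from 11.4% to 27.8% at 3 h and from 16.1% to 18.3% at 6 h. No paired analysis was possible because each group has 1 library. Low counts of the CLK genes in free RNA limit those ratios.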
